A study of Mus musculus with 4 samples.

Results

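Coagulation and fibrinolysis were followed through 32 genes that code for clotting factors, their cofactors, the anticoagulant proteins that restrain them and the enzymes that dissolve fibrin again. The members were chosen by name, with no measured value in the rule but with earlier results of these data known. All 32 were found among the 27027 entries of the count table. Hepatic RNA of male C57BL/6 mice (C57BL/6J in the study's methods), aged 9 to 12 weeks and fasted for 10 h, was analysed at 24 h and 48 h after an intraperitoneal injection of 0.9% NaCl as vehicle or of acetaminophen (APAP) at 300 mg/kg. RNA of 6 vehicle-treated mice at each time and of 7 APAP-treated mice at each time was pooled in equal shares, and each pool gave 1 library by massive analysis of cDNA ends (MACE), which sequences the 3′ ends of transcripts. Each group is thus 1 library without a replicate, all mice were of one strain and sex, and a difference between pools carries no estimate of the spread between mice.

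Blood clotting is a cascade of proteases that circulate as inactive precursors. Tissue factor with factor VII, or the contact system of factor XII, prekallikrein and kininogen, leads to active factor X, which with factor V turns prothrombin into thrombin. Thrombin cleaves fibrinogen to fibrin, factor XIII cross-links the fibrin, and plasmin, made from plasminogen, digests it. Most of the proteins that circulate are made by hepatocytes, several of them in a form that depends on vitamin K, whereas thrombomodulin, the protein C receptor, tissue factor pathway inhibitor and the plasminogen activators are mainly products of endothelial and other non-parenchymal cells. Fibrinogen is also known as an acute-phase protein, whose genes respond to interleukin-6.

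The libraries held between 4859661 and 5698778 reads. Reads were normalized by size factors between 0.880 and 1.17, a fold is the ratio of normalized reads in the APAP pool to those in the time-matched control pool, and the range in parentheses after a fold is its 95% exact (Clopper-Pearson) interval, which covers counting error only. Scaling by library totals instead raised every log2 fold by 0.19 at 24 h and by 0.27 at 48 h. The 9 hepatocyte markers, among them Alb and Ttr, were present in all libraries and summed to 500025 and 522195 normalized reads in the control pools at 24 h and 48 h and to 416024 and 483676 in the APAP pools. In RNA of a whole organ, fewer cells of a type and less RNA per cell cannot be told apart.

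Fibrinogen made the largest difference in reads among the members. The genes of its 3 chains were 2.48-fold to 2.82-fold higher in the APAP pool at 24 h and 1.32-fold to 1.46-fold higher at 48 h, whereas most of the other liver-made factors were at or below their control level. The lowest of these were F7, F10, F13b, Proz and Klkb1 at 24 h, and F13b, F10, Serpinc1, F7 and Proz at 48 h. Plaur, Thbd and F13a1, which had few reads in the control pools, were higher at both times. A normalized mean of at least 10 reads over the 4 libraries was reached by 28 of the 32 members, and not by F3, Plat, Plau and Procr. Among these 28, 6 were at least 2-fold higher at 24 h (Fga, Fgb, Fgg, F13a1, Thbd and Plaur), against 5.85% of the 12113 entries that reached the same mean. F7 alone was at least 2-fold lower at 24 h, against 5.68% of all entries, and with library totals it was 1.86-fold lower, so that the split of 6 higher and 1 lower became 6 and 0. At 48 h 3 members were at least 2-fold higher (F13a1, Thbd and Plaur), against 5.76% of all entries, and 0 were lower, against 5.61%. F13a1 and Plaur had under 10 normalized reads in both control pools and reached the mean only through the APAP pools, and without them 4 of 26 members were higher and 1 lower at 24 h, and 1 was higher and 0 lower at 48 h.

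Across the 28 members the log2 fold had a median of −0.20 (24 h) and −0.17 (48 h), beside 0.01 and −0.02 over all entries. The fold was below 1 for 19 members at 24 h (67.9%) and for 15 at 48 h (53.6%), beside 49.6% and 51.3% of all entries. With library totals these counts were 14 (50.0%) and 9 (32.1%), beside 34.8% and 30.3% of all entries, since Kng2, Hrg, Kng1, F12 and F5 at 24 h and Proc, Klkb1, Hrg, Cpb2, Serpina10 and F12 at 48 h then lay above 1. Between the control pools themselves, 1 of the 28 members differed by at least 2-fold (F13a1, higher at 48 h, on 1 and 7 reads), where 2.86% of all entries were higher and 2.34% lower. For the 24 members whose mean reached 100 normalized reads, the ratio of the 48 h to the 24 h control pool lay between 0.879 (Cpb2) and 1.31 (F13b). After APAP, 3 of these 24 (Fga, Fgb and Fgg) lay above and 4 (F7, F10, F13b and Serpinc1) below their control by more than 1.31-fold at both times and with both scalings, beside 5.43% and 8.66% of the 4398 entries of that level. This compares each difference with that between a single pair of control pools. Against the 24 h control pool, with size factors, F7 at 48 h was 1.28-fold lower and thus short of 1.31-fold. F13b and Serpinc1 were then only just past it, at 1.34-fold and 1.35-fold lower, and F10 was 1.59-fold lower. Library totals, which raise the folds at 48 h, were not combined with this change of control pool, so that these 4 were not shown to hold under both choices together.

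**Figure D1:**
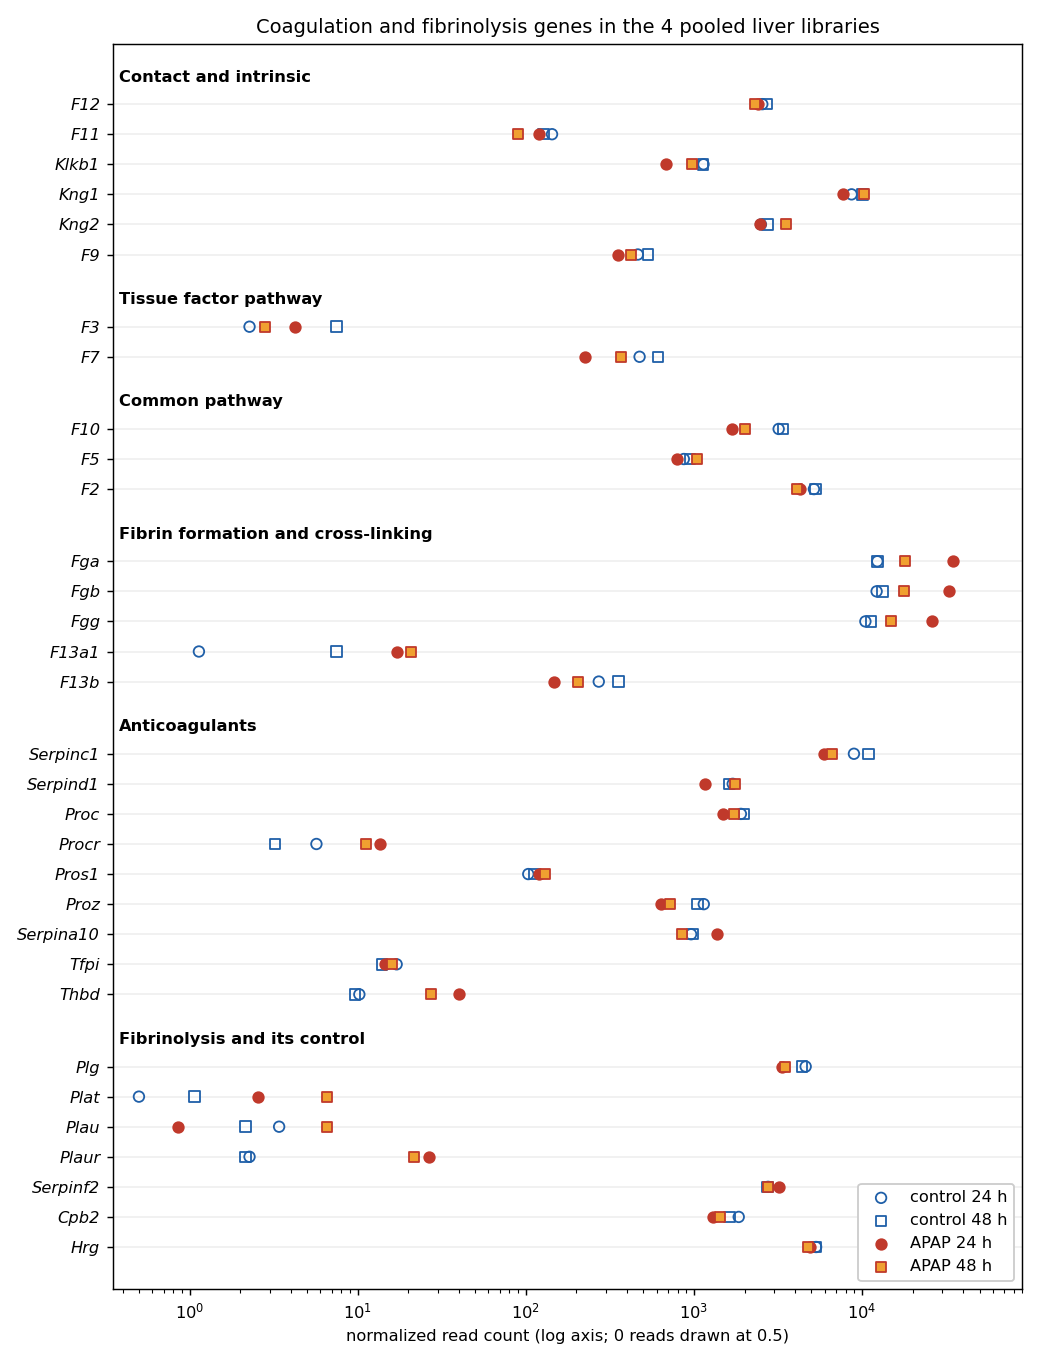
Normalized read counts (log axis) of the 32 genes in the 4 pooled libraries, in 6 groups by role, with open symbols for the control pools, filled symbols for the APAP pools, circles for 24 h and squares for 48 h. The 3 fibrinogen genes lie to the right of their controls at both times, F7, F10, F13b, Proz and Serpinc1 lie to the left of theirs at both times, and F13a1, Thbd and Plaur sit at low counts with both APAP pools above both control pools.

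The fibrinogen genes code for the Aα, Bβ and γ chains of the hexamer that thrombin turns into fibrin, and they lie side by side on chromosome 3 within 42.1 kb (GRCm38, chr3:83007724-83049863), with Fgg and Fga on the plus strand and Fgb on the minus strand. The stretch before the start of each gene is printed because the 3 genes moved together. The sequences are those of RefSeq on GRCm38.p6, read 5′ to 3′ on the strand of the gene, at chr3:83025903-83026075 (+), chr3:83049864-83050113 (−) and chr3:83007474-83007723 (+). The window of Fga stops at the gene's start in GENCODE, which lies before that in RefSeq. Capitals mark matches to TTCNNNGAA (the letters of STAT sites), to CTGGGAA (the core of interleukin-6 response elements of acute-phase genes) and to GTTAAT (a hexamer of HNF1 sites), on either strand.
Fga: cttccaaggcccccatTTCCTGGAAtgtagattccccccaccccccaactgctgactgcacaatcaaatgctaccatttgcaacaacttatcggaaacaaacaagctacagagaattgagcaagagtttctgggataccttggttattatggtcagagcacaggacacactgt
Fgb: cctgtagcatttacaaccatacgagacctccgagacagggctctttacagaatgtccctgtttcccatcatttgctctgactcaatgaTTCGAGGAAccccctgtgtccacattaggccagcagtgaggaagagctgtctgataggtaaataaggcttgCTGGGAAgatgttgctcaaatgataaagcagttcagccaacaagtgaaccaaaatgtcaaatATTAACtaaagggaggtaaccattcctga
Fgg: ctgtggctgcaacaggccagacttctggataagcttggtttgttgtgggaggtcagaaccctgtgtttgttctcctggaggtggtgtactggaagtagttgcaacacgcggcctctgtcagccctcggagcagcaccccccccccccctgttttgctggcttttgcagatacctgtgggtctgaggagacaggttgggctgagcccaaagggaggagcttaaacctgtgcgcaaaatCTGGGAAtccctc

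In the 250 bases before its RefSeq start, Fga held TTCCTGGAA 234 bases and ATTAAC 43 bases before the start, the latter in the stretch not printed. Fgb held CTGGGAA 91 bases, TTCGAGGAA 162 bases and ATTAAC 29 bases before the start, and Fgg held CTGGGAA 13 bases before it. Fgb also held the AP-1 letters TGACTCA at 173 bases, and Fgg the letters AGGTCA at 201 bases, both left in lower case. No matches within these windows overlapped. Of the 25 members with an entry in the promoter table, 4 held CTGGGAA (F9, Fgb, Fgg and Tfpi), 4 TTCNNNGAA (F9, Fga, Fgb and Pros1) and 4 GTTAAT (F13b, Fga, Fgb and Proz). Among all 32851 single windows of that length, 9.10% held CTGGGAA, 7.02% TTCNNNGAA and 6.43% GTTAAT. A member was counted if any of its windows held the letters, so the counts and these shares are not of the same unit. The letters were searched with these genes in view, and a match is a description of the window and not of a bound site.

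Fga was counted 10848, 11497, 40800 and 19169 times in the 24 h control, 48 h control, 24 h APAP and 48 h APAP pools, the order kept in all lists of 4 values. Its normalized level was 2.82-fold (2.76 to 2.88) higher at 24 h and 1.46-fold (1.42 to 1.49) higher at 48 h, and the control pools differed by less than the counting interval. Both APAP pools thus lay above both control pools, with the pool at 24 h far above the pool at 48 h. Fgb gave 10742, 12323, 38760 and 18827 reads, a 2.70-fold (2.65 to 2.76) and a 1.34-fold (1.31 to 1.37) higher level. Fgg gave 9211, 10548, 30483 and 15908 reads, a 2.48-fold (2.42 to 2.54) and a 1.32-fold (1.29 to 1.35) higher level. The chains kept close to a fixed ratio, since Fga took between 33.5% and 37.1% of the fibrinogen reads of a library, Fgb between 34.9% and 35.9% and Fgg between 27.7% and 30.7%. The lowest share of Fgg and the highest of Fga were those of the APAP pool at 24 h, where the interval of the Fgg fold lay below that of Fga. Fgg overlaps Gm30097 on the other strand, and how the counting used the strand is not given in the sources used here.

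Together the 3 genes took 0.634% and 0.662% of all reads in the control pools, and 1.93% (24 h) and 1.09% (48 h) in the APAP pools. Their summed normalized reads were 2.68-fold (2.64 to 2.71) higher at 24 h and 1.37-fold (1.35 to 1.39) higher at 48 h. The other 29 members summed to 0.81 (0.800 to 0.820) and 0.85 (0.838 to 0.858) of their controls. As a share of all reads these 29 took 0.992% and 1.05% in the control pools against 0.915% and 1.07% in the APAP pools, so that at 48 h the lower sum held for normalized reads and not for library shares. The hepatocyte markers, which are made by the same cells as fibrinogen, had log2 folds with medians of −0.32 (24 h) and −0.04 (48 h), with 0 of 9 at least 2-fold higher at either time.

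**Figure D2:**
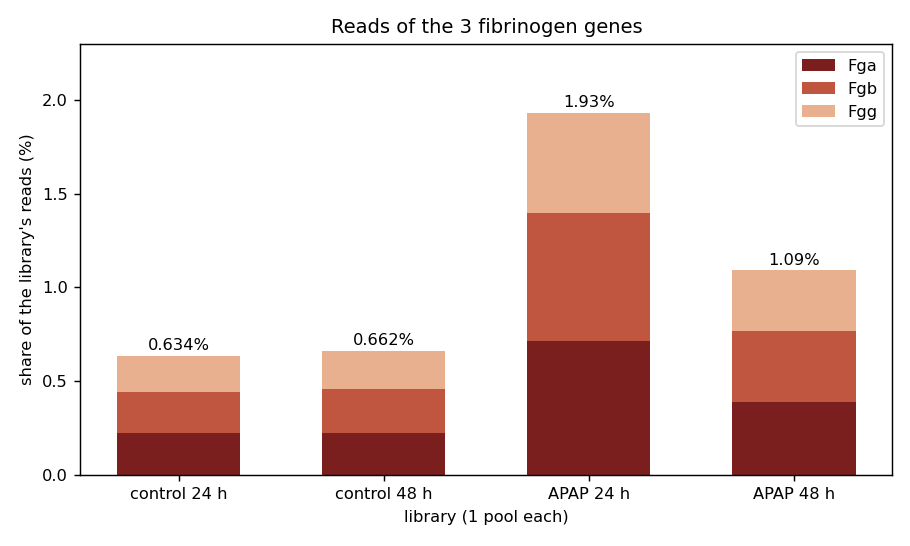
Reads of Fga, Fgb and Fgg as a percentage of all reads of each library (stacked bars from 0, 1 pool per bar). The control pools reach 0.634% and 0.662%, the APAP pool at 24 h 1.93% and the APAP pool at 48 h 1.09%, with the 3 chains in nearly equal parts in each.

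Of the 5 genes of fibrin formation and cross-linking, 4 were past 2-fold on the higher side at 24 h, 1 at 48 h and 0 on the lower side, with the shares of all entries between 5.61% and 5.85% for either side and time as given above. F13a1, 1 of these 4 and the 1 at 48 h, reached the minimum mean only through the APAP pools, and the fibrinogen genes made up the rest. Factor XIII, which cross-links fibrin, went different ways in its 2 subunits. F13b, the carrier subunit made in hepatocytes (chr1:139501702-139523752), was counted 239, 331, 172 and 217 times and was 1.85-fold (1.52 to 2.27) lower at 24 h and 1.74-fold (1.47 to 2.08) lower at 48 h. Both APAP pools lay below both control pools, and with library totals F13b was 1.63-fold and 1.45-fold lower. Against the control pool of the other time F13b was 2.42-fold lower at 24 h and 1.34-fold lower at 48 h. F13a1, the catalytic subunit of macrophages and platelets, had 1, 7, 20 and 22 reads. The ratio of its normalized counts was 15.0 (2.40 to 621) at 24 h, its fold at 48 h was 2.75 (1.13 to 7.62), and with 3 reads set in place of the single read of the 24 h control pool the former was 4.99. Its size rests on that library, since against the 48 h control pool the 24 h fold of F13a1 was 2.27. F13a1 is low everywhere, and its level in both APAP pools was above that in both control pools.

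F7, F10 and Proz lie next to each other on chromosome 8 within 50.0 kb (GRCm38, chr8:13026034-13076026), all on the plus strand, and all were lower in both APAP pools than in either control pool. Factor VII starts clotting together with tissue factor, factor X is the protease at which the intrinsic and the tissue factor pathways meet, and protein Z is the cofactor of the inhibitor that inactivates factor X. Their promoters are printed for this shared position and direction, from RefSeq on GRCm38.p6 at chr8:13025784-13026033, chr8:13037058-13037307 and chr8:13060658-13060907, all on the plus strand. Capitals mark matches on either strand to AGGTCA, a hexamer of nuclear receptor sites, in F7 and F10 and to GTTAAT in Proz.
F7: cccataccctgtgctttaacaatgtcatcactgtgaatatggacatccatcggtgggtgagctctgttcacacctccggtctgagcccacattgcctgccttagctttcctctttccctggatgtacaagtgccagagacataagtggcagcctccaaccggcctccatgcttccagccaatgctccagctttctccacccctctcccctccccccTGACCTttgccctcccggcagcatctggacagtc
F10: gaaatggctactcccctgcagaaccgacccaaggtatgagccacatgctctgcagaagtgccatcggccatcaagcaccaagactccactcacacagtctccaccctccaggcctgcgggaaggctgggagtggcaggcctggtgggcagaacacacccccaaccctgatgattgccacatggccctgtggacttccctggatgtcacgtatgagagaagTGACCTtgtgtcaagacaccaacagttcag
Proz: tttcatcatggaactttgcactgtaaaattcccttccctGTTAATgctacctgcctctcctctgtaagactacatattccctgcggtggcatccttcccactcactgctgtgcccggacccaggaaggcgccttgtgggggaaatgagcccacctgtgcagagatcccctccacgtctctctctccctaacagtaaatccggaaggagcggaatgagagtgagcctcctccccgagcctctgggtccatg

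F7 held TGACCT, which is AGGTCA on the other strand, 34 bases before the start, and F10 held the same letters 30 bases before it. Proz held no match to AGGTCA and held GTTAAT 211 bases before its start. AGGTCA was found in 8 of the 25 members (F2, F5, F7, F10, Fgg, Kng2, Procr and Serpinf2), counted over any window of a member, and in 14.0% of all single windows.

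F7 was counted 418, 570, 263 and 395 times. Normalized to 475, 611, 224 and 370 reads, it was 2.12-fold (1.81 to 2.48) lower at 24 h and 1.65-fold (1.45 to 1.88) lower at 48 h. The 48 h control pool was 1.29-fold (1.13 to 1.46) above the 24 h control pool, and both APAP pools lay below both of them. Against the control pool of the other time F7 was 2.73-fold lower at 24 h and 1.28-fold lower at 48 h. F10 gave 2808, 3158, 1989 and 2144 reads and was 1.88-fold (1.78 to 2.00) lower at 24 h and 1.68-fold (1.59 to 1.78) lower at 48 h, with the control pools within 1.06-fold of each other. Proz gave 1007, 983, 747 and 772 reads and was 1.80-fold (1.64 to 1.98) and 1.46-fold (1.32 to 1.60) lower. With library totals the 3 genes were still lower, at 0.54 (F7), 0.60 (F10) and 0.63 (Proz) of the control at 24 h and at 0.73, 0.71 and 0.83 at 48 h. F3, tissue factor itself, had 2, 7, 5 and 3 reads, too few for a comparison, and the ratios 1.87 (0.307 to 19.7) and 0.375 (0.0625 to 1.64) both hold 1 in their interval.

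The hepatocyte markers, with 1 of 9 (Ass1) at least 2-fold lower at 24 h and 0 at 48 h, had the medians given above, and their part in these levels was not tested.

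The other factors of the common pathway stayed nearer to their controls. Prothrombin (F2), the precursor of thrombin, gave 4551, 4923, 5001 and 4390 reads and was 1.21-fold (1.17 to 1.26) lower at 24 h and 1.28-fold (1.23 to 1.34) lower at 48 h. Factor V (F5), the cofactor of factor X, gave 766, 882, 933 and 1112 reads, with a fold of 0.913 (0.828 to 1.01) at 24 h and 1.10 (1.01 to 1.21) at 48 h. F2 was thus below its control at both times also with library totals, at 0.94 each, whereas F5 lay on either side of 1 at 24 h depending on the scaling.

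Of the 6 contact and intrinsic genes, 0 were past 2-fold at either time, on sides that each hold between 5.61% and 5.85% of all entries, and all 6 had a fold below 1 at 24 h. With library totals F12, Kng1 and Kng2 lay above 1 at 24 h. Klkb1, which codes for prekallikrein and whose entry in the table is merged with the readthrough transcript Gm45753, was the lowest of the group with 1003, 1055, 797 and 1045 reads. It was 1.68-fold (1.53 to 1.85) lower at 24 h and 1.15-fold (1.06 to 1.26) lower at 48 h, where library totals turned its fold to 1.04. The control pools of Klkb1 were within 1.01-fold of each other, so that the pool at 24 h stood alone. F9, the factor missing in haemophilia B, gave 408, 496, 415 and 449 reads and was 1.31-fold (1.14 to 1.51) and 1.26-fold (1.11 to 1.44) lower. F11, its activator, gave 126, 119, 141 and 96 reads and was 1.19-fold (0.930 to 1.53) lower at 24 h, where the interval held 1, and 1.42-fold (1.07 to 1.87) lower at 48 h. F12, which starts the contact pathway, gave 2244, 2523, 2819 and 2459 reads and folds of 0.941 (0.890 to 0.995) and 0.852 (0.806 to 0.901). The kininogens stayed near their controls at 24 h. Kng1 gave 7625, 9358, 9065 and 10936 reads and folds of 0.891 (0.864 to 0.918) and 1.02 (0.994 to 1.05), while Kng2 gave 2202, 2548, 2884 and 3773 reads and folds of 0.981 (0.928 to 1.04) and 1.29 (1.23 to 1.36), the highest of the group at 48 h. Their transcripts share 97.7% of bases over 298 of the last 300, so reads of the one can have been counted for the other, and the entry of Kng2 also includes the pseudogene Gm6493.

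**Figure D3:**
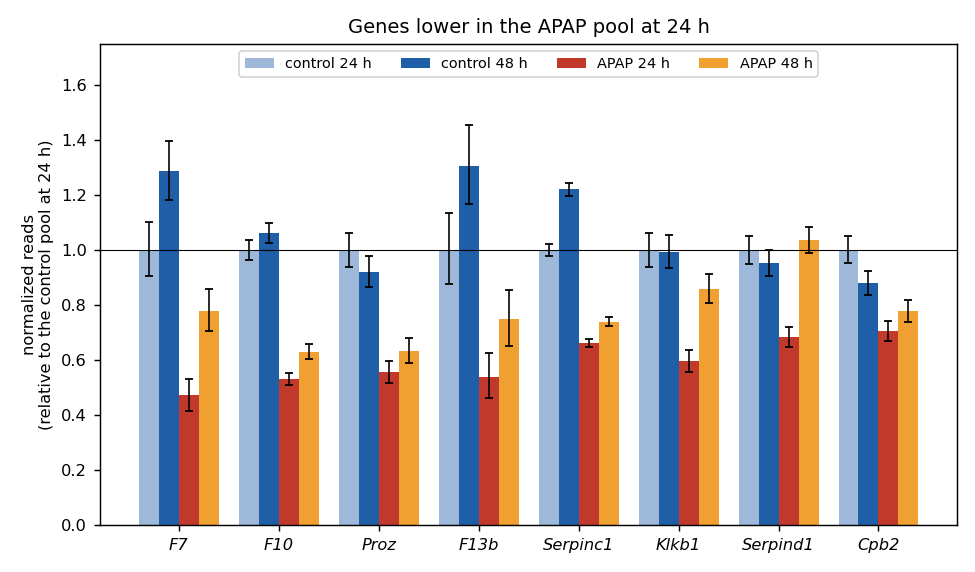
Normalized reads of 8 genes in each pool, relative to the control pool at 24 h (bars from 0, 1 library per bar, error bars for the 95% exact Poisson interval of the count). The bars of F7, F10, Proz, F13b, Serpinc1, Klkb1 and Cpb2 are lower in both APAP pools than in both control pools, and that of Serpind1 is above both control pools at 48 h. With library totals the 48 h folds of Klkb1 and Cpb2 were 1.04 and 1.06.

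Among the 9 anticoagulant genes, 8 of which reached the mean of 10 reads, Thbd was at least 2-fold higher at both times (beside 5.85% and 5.76% of all entries) and 0 were at least 2-fold lower (beside 5.68% and 5.61%). Thbd had 10.2 and 9.65 normalized reads in the control pools, so that it reached the mean largely through the APAP pools. Antithrombin (Serpinc1, chr1:160978585-161005863), the main plasma inhibitor of thrombin and factor X, gave 7874, 10198, 6950 and 7061 reads. It was 1.51-fold (1.46 to 1.56) lower at 24 h and 1.65-fold (1.60 to 1.70) lower at 48 h, and with library totals it was 1.33-fold and 1.37-fold lower. The 48 h control pool was 1.22-fold (1.19 to 1.26) above the 24 h control pool, and against the control pool of the other time Serpinc1 was 1.85-fold lower at 24 h and 1.35-fold lower at 48 h. Serpinc1 overlaps Zbtb37 on the other strand.

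With size factors, Serpind1 and Serpina10 each had counting intervals on opposite sides of 1 at the 2 times. At 48 h both folds lay within the largest difference of the control pools (1.31-fold). Against the 24 h control pool the fold of Serpind1 at 48 h was 1.04. Heparin cofactor II (Serpind1), a second inhibitor of thrombin, gave 1497, 1512, 1368 and 1879 reads and was 1.46-fold (1.36 to 1.57) lower at 24 h and 1.09-fold (1.02 to 1.16) higher at 48 h. Serpina10, the inhibitor of factor X that works with protein Z, gave 846, 917, 1612 and 906 reads and was 1.43-fold (1.31 to 1.55) higher at 24 h and 1.16-fold (1.05 to 1.27) lower at 48 h, where library totals gave 1.04. At 24 h Serpina10 was therefore above its control while its cofactor Proz was below. Protein C (Proc), which cuts factors V and VIII, gave 1674, 1856, 1749 and 1854 reads and folds of 0.783 (0.732 to 0.838) and 0.874 (0.819 to 0.932), the latter turning to 1.05 with library totals. Protein S (Pros1), its cofactor, gave 91, 105, 140 and 139 reads and folds of 1.15 (0.879 to 1.52) and 1.16 (0.892 to 1.51), both with 1 in the interval.

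The endothelial members of the protein C system had few reads. Thrombomodulin (Thbd), the receptor that turns thrombin towards protein C, gave 9, 9, 47 and 29 reads and was 3.91-fold (1.90 to 9.08) higher at 24 h and 2.82-fold (1.30 to 6.77) higher at 48 h. Each APAP pool had at least 29 reads of Thbd and each control pool 9. The protein C receptor (Procr) gave 5, 3, 16 and 12 reads, ratios of 2.40 (0.839 to 8.37) and 3.50 (0.944 to 19.3) whose intervals held 1. Tfpi, the inhibitor of the tissue factor complex, gave 15, 13, 17 and 17 reads and folds of 0.849 (0.399 to 1.83) and 1.14 (0.523 to 2.56), so that no difference was detectable at this depth. The 9 markers of sinusoidal endothelium summed to 1039 and 1118 normalized reads in the control pools and to 1069 and 1147 in the APAP pools, 1 of them (Lyve1) at least 2-fold higher at both times and 0 lower.

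Of the 7 fibrinolytic genes 5 reached the mean of 10 reads, Plaur was at least 2-fold higher at both times and 0 were lower, beside the same shares of all entries. Plaur reached that mean only through the APAP pools. The plasma proteins made by hepatocytes stayed within 1.5-fold of their controls. Plasminogen (Plg, chr17:12378608-12419385) gave 4065, 4098, 3938 and 3699 reads and was 1.38-fold (1.32 to 1.44) lower at 24 h and 1.27-fold (1.21 to 1.32) lower at 48 h. Cpb2, which removes the plasminogen binding sites of fibrin, gave 1625, 1515, 1529 and 1531 reads and was 1.42-fold (1.32 to 1.52) and 1.13-fold (1.05 to 1.22) lower, with 1.06 in place of 0.88 at 48 h under library totals. Serpinf2, the plasmin inhibitor, was the exception in direction at 24 h with 2430, 2561, 3747 and 2959 reads and folds of 1.16 (1.10 to 1.22) and 1.01 (0.958 to 1.07). Hrg, a plasma protein that binds plasminogen and heparin, gave 4689, 4954, 5747 and 5094 reads and folds of 0.918 (0.883 to 0.955) and 0.899 (0.865 to 0.935), both above 1 with library totals. Plg overlaps Slc22a3 on the other strand.

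The activators of plasminogen were hardly seen in liver RNA. Plat, the tissue activator, had 0, 1, 3 and 7 reads, and Plau, urokinase, had 3, 2, 1 and 7 reads. Their ratios at 48 h, 6.12 (0.786 to 276) for Plat and 3.06 (0.583 to 30.2) for Plau, held 1 in the interval. A count of 0, as for Plat in the 24 h control pool, allows up to 3 reads. Plaur (chr7:24462484-24475968), the urokinase receptor, had 2, 2, 31 and 23 reads, few in both control pools and more in both APAP pools. Its counts gave ratios of 11.6 (2.95 to 100) for 24 h and 10.1 (2.48 to 88.0) for 48 h, and with 3 reads set in place of 2 they were 7.74 and 6.70. The study selected genes on these same libraries by a fold of 5 at both times, which Plaur passes here, so that its fold is a description of these libraries.

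Several marker lists of non-parenchymal cells had higher sums after APAP, like Plaur, F13a1 and Thbd. The monocyte markers summed to 163 and 185 normalized reads in the control pools and to 486 and 801 in the APAP pools, with 4 of the 5 that reached the mean at least 2-fold higher at each time and 0 of 6 at 0 reads. The neutrophil markers summed to 18.2 and 19.3 in the control pools and to 215 and 171 in the APAP pools, with both of the genes that reached the mean (S100a8 and S100a9) at least 2-fold higher at both times, 1, 1, 0 and 1 of 6 at 0 reads, and no entry found under the symbol Ly6g. S100a9 and the monocyte markers Ly6c2 and Ccr2 had under 10 normalized reads in both control pools and reached the mean only through the APAP pools. S100a8 is among the genes that the study selected on these same libraries. The counts of higher genes in these 2 lists are thus descriptions. The macrophage markers summed to 1386, 1308, 1358 and 2004 normalized reads, with 1 of 9 at least 2-fold higher at 24 h and 2 of 9 at 48 h. The platelet and megakaryocyte markers summed to 19.3, 21.4, 41.7 and 45.9, with 5, 4, 0 and 3 of 8 genes at 0 reads. The stellate cell and fibroblast markers summed to 508, 541, 644 and 1093 normalized reads, with 1 of 8 at least 2-fold higher at 24 h (Acta2) and 4 of 8 at 48 h (Acta2, Col1a1, Col3a1 and Des) and 0 of 8 at 0 reads. The cholangiocyte markers summed to 143, 181, 398 and 307, with 1 of the 2 that reached the mean at least 2-fold higher at 24 h (Sox9) and 1 at 48 h (Spp1) and 0 of 5 at 0 reads. These higher sums rested on Sox9 and Spp1. The other cholangiocyte markers had few reads and were not higher at both times: Krt7 had 8, 8, 15 and 2, Krt19 6, 13, 8 and 8, and Epcam 2, 10, 5 and 7. Of the 3 mesothelial and the 3 T cell markers 0 reached the mean. The part of these cells in the levels of Plaur, F13a1 and Thbd was not tested.

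**Figure D4:**
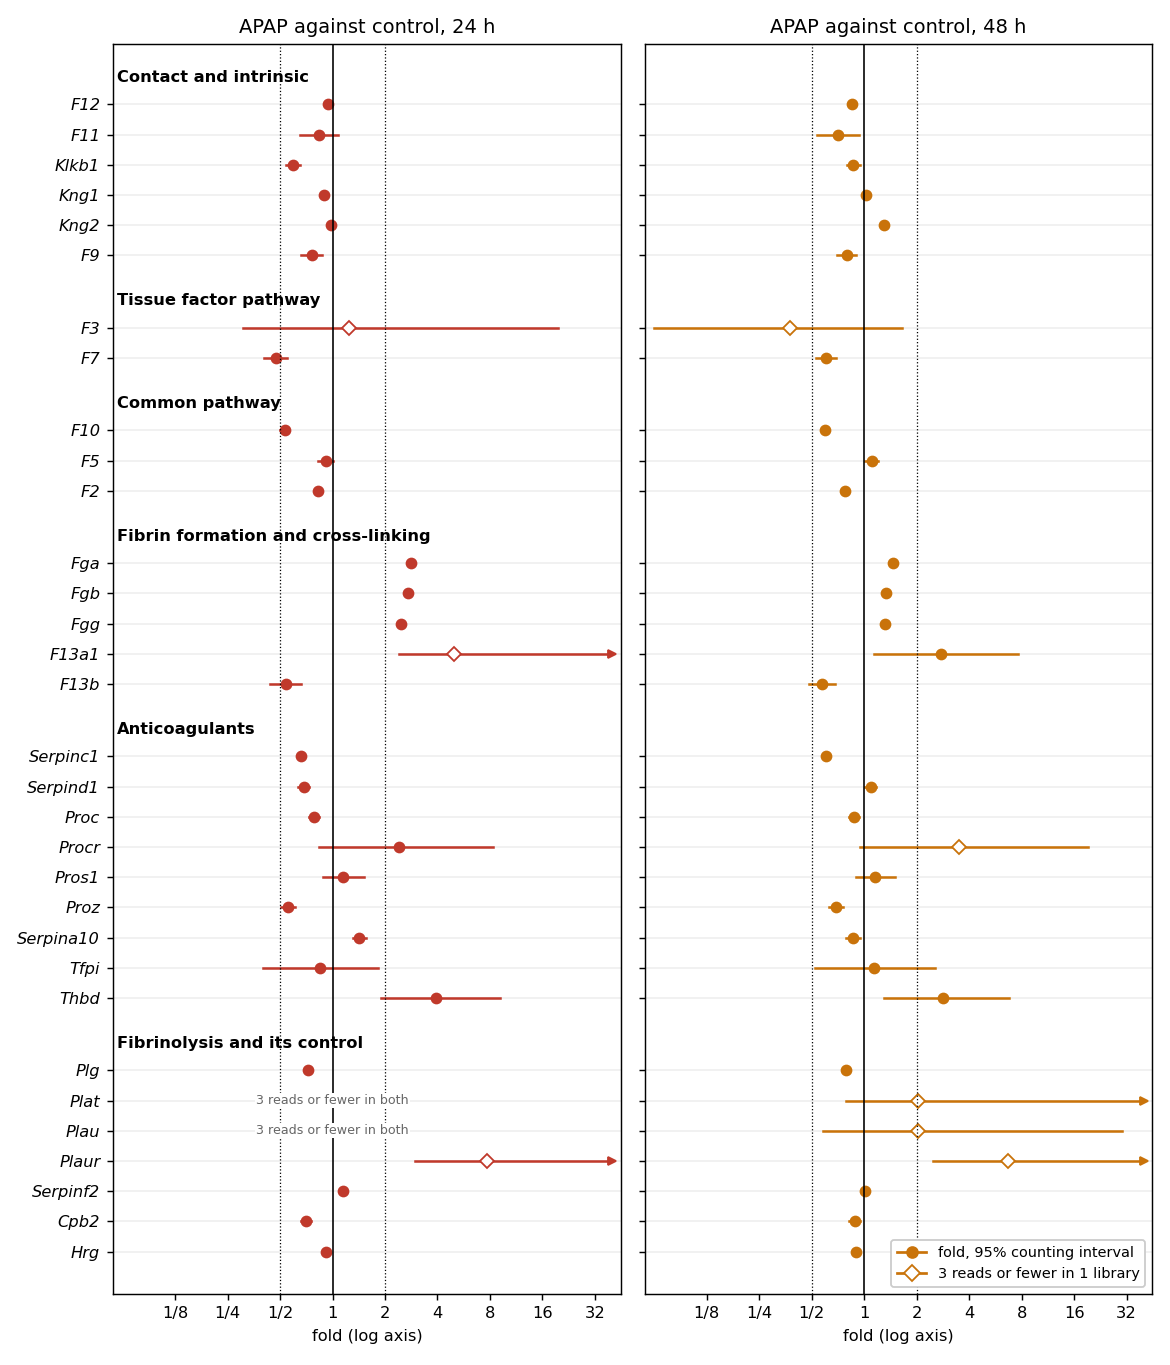
Fold of each of the 32 genes between the APAP pool and the time-matched control pool (log axis), at 24 h on the left and 48 h on the right, with lines for the 95% counting interval, dotted lines at 2-fold, and open diamonds where a library had 3 reads or fewer, which were then set to 3 reads for the fold. At 24 h Fga, Fgb, Fgg, F13a1, Thbd and Plaur lie above 2-fold and F7 lies below (1.86-fold lower with library totals), and at 48 h F13a1, Thbd and Plaur lie above.

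With size factors, most of the 28 members lay on the same side of 1 at the 2 times, which have separate control pools. Counting intervals lay above 1 at both times for 6 members (Fga, Fgb, Fgg, F13a1, Thbd and Plaur) and below 1 at both for 13 (F2, F7, F9, F10, F12, F13b, Cpb2, Hrg, Klkb1, Plg, Proc, Proz and Serpinc1). For F12, Hrg, Klkb1, Proc and Cpb2 among the latter, library totals moved the fold to above 1 at 1 time or both. Such intervals cover counting error only and narrow with more reads, so that even the 0.941 of F12 at 24 h left out 1. The share of all entries with such intervals was not computed, so these counts describe the members alone. The fold lay farther from 1 at 24 h than at 48 h for 20 of the 28 members (71.4%), as it did for 50.3% of all entries. F5 and Kng2 had an interval that held 1 at 24 h and lay above it at 48 h, F11 one that held 1 at 24 h and lay below it at 48 h, and Kng1 and Serpinf2 had left 1 at 24 h only. Whether the folds at the 2 times differ beyond the spread between mice could not be tested with 1 pool each.

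The counts at 1.5-fold depended on the scaling. At 24 h the same 6 members were higher and 6 were lower (F7, F10, F13b, Proz, Klkb1 and Serpinc1), beside 14.2% and 14.5% of all entries. At 48 h 3 members were higher and 4 lower (F7, F10, F13b and Serpinc1), beside 13.6% and 14.4% of all entries. With library totals, an alternative added after the data were seen, 7 members were higher at 24 h (the same 6 and Serpina10) and 4 were lower (F7, F10, F13b and Proz), beside 22.4% and 9.06% of all entries. At 48 h 7 were then higher (F13a1, Thbd, Plaur, Fga, Fgb, Fgg and Kng2) and 0 lower, beside 25.8% and 7.73%, with F7, F10, F13b and Serpinc1 at 1.37-fold to 1.45-fold lower. At 5-fold, with 3 reads set in place of fewer, Plaur was the only member higher, at both times, where 0.652% of all entries were higher and 0.636% lower at 24 h and 0.553% and 0.768% at 48 h. F13a1 at 24 h, at 4.99 with 3 reads set in place of 1, stopped just short of 5-fold, which the ratio of its counts exceeded.

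**Figure D5:**
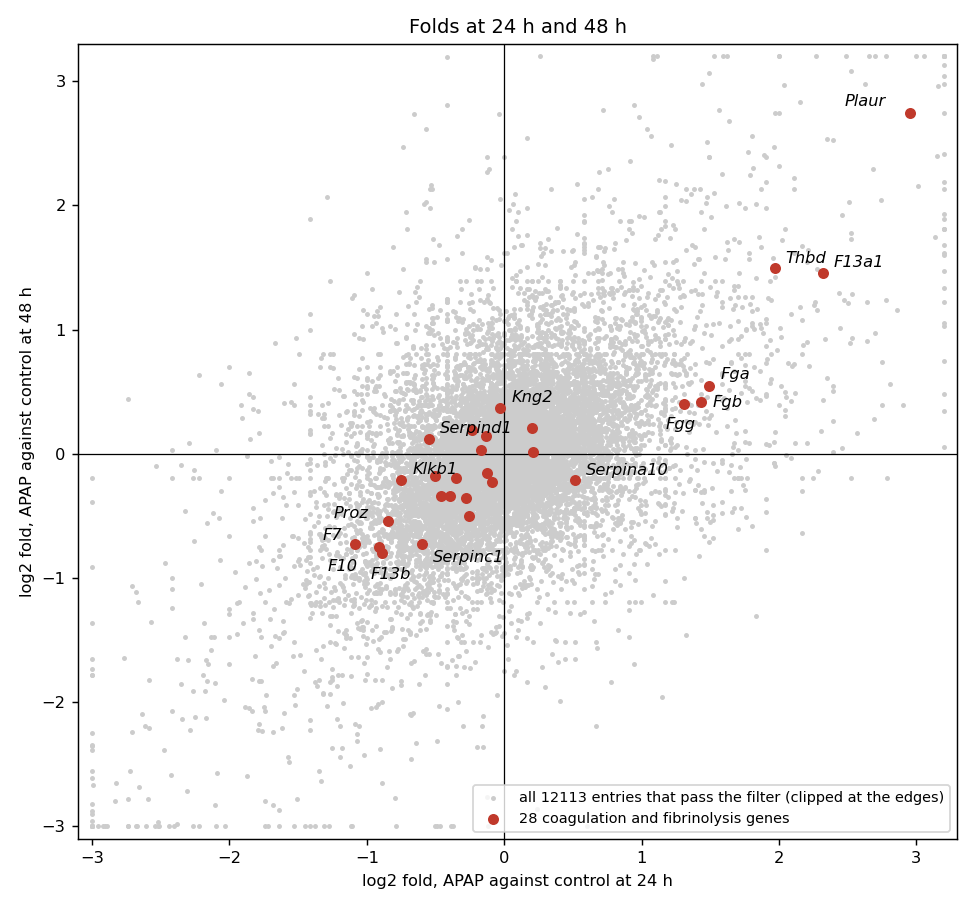
Log2 fold at 24 h (x) against log2 fold at 48 h (y), APAP against control, for all 12113 entries that reached the minimum mean (grey, clipped at the edges) and the 28 members that did (red). Plaur, Thbd, F13a1 and the fibrinogen genes lie in the upper right, F7, F10, F13b, Proz and Serpinc1 in the lower left, where library totals would shift all points by 0.19 along x and by 0.27 along y without moving these genes across 0.

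The neighbouring genes of the pathway were followed in 4 lists with 31 genes in all, of which 22 reached the minimum mean. At 24 h 2 of the 22 were at least 2-fold higher and 1 was lower, beside 5.85% and 5.68% of all entries, and at 48 h 2 were higher and 4 lower, beside 5.76% and 5.61%. With library totals 2 were higher and 0 lower at each time, and the genes past 2-fold on the lower side (Tfpi2, Serpine2, Hgfac and Asgr2) kept a fold under 1. Against the 24 h control pool their folds at 48 h were 0.529 (Tfpi2), 0.550 (Serpine2), 0.623 (Hgfac) and 0.483 (Asgr2), so that Asgr2 alone was past 2-fold.

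Of the further protease inhibitors, 4 of 7 reached the minimum mean, and 1 was at least 2-fold lower at 24 h and 2 at 48 h. Tfpi2, a relative of Tfpi, gave 195, 235, 116 and 125 reads and was 2.24-fold (1.77 to 2.85) lower at 24 h and 2.15-fold (1.72 to 2.69) lower at 48 h. Serpine2, an inhibitor of thrombin on cell surfaces, gave 27, 37, 20 and 18 reads and was 1.80-fold (0.974 to 3.39) and 2.35-fold (1.30 to 4.39) lower, the former with 1 in its interval. Among the receptors, Anxa2, which binds plasminogen on cells, gave 58, 61, 317 and 546 reads and was 4.09-fold (3.09 to 5.52) higher at 24 h and 7.83-fold (6.00 to 10.4) higher at 48 h. Its partner S100a10 gave 895, 885, 1920 and 871 reads, 1.61-fold (1.48 to 1.74) higher at 24 h and 1.16-fold (1.06 to 1.28) lower at 48 h, where library totals gave a fold of 1.03. Plgrkt, a further plasminogen receptor, was 2.25-fold higher at 24 h on 6 and 18 reads, with 1 in the interval.

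Of the cofactors and plasma proteins outside the members, Fgl1, a fibrinogen-like protein made in hepatocytes, gave 2341, 1139, 4076 and 4605 reads and was 1.30-fold (1.24 to 1.37) higher at 24 h and 3.54-fold (3.31 to 3.78) higher at 48 h. The 48 h control pool of Fgl1 was 2.18-fold (2.03 to 2.34) below the 24 h control pool, against which the fold at 48 h was 1.62. Hgfac, a protease related to factor XII, gave 711, 1014, 764 and 537 reads and was 1.24-fold (1.12 to 1.38) lower at 24 h and 2.16-fold (1.94 to 2.40) lower at 48 h. F8, the cofactor of factor IX, and Vwf, its carrier, both products of endothelium, had folds of 1.03 (0.691 to 1.53) and 0.890 (0.433 to 1.85) at 24 h and of 1.11 (0.760 to 1.62) and 0.984 (0.474 to 2.06) at 48 h. Of the vitamin K, secretion and clearance genes 0 of 7 were past 2-fold at 24 h and 1 was at 48 h, namely Asgr2, a chain of the receptor that clears plasma glycoproteins, with 933, 984, 664 and 546 reads and levels 1.88-fold (1.70 to 2.07) and 2.06-fold (1.85 to 2.29) lower. Ggcx, the carboxylase that vitamin K-dependent factors need, gave 106, 128, 92 and 92 reads and was 1.54-fold (1.15 to 2.06) and 1.59-fold (1.21 to 2.10) lower.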

How the data were processed

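RNA was digested with DNase, pooled per condition and sequenced by MACE with unique molecular identifiers. The authors removed duplicate reads, trimmed with cutadapt, and mapped to mm10 (GRCm38). The deposited HTSeq count of each gene had not been normalized. The aligner and the handling of strand are not given in the sources used here. RPM values, log2 ratios, p-values and FDR values in the same table, computed by the authors (DESeq2 is among the tools in the submitters' processing notes), were not used. Groups came from the labels.

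Size factors came from DESeq2 1.42.0 by median of ratios, with TMM from edgeR 4.0.16 as an alternative (R 4.3.3), and all else from Python 3.11.15, numpy 2.4.6, pandas 2.3.3, scipy 1.17.1 and matplotlib 3.10.9. With 1 library per group no test was run. Entries whose normalized reads averaged 10 or more over the 4 libraries were compared, counts under 3 were set to 3 in a fold, no pseudocount was added, and a gene was called higher or lower at 2-fold. Intervals are 95% exact Clopper-Pearson intervals of the share of reads. The computation was tested on simulated data. The 32 members and all gene lists were chosen with earlier results of these data known. The rule named all 32 members and the genes of the related lists past 2-fold at 24 h or 48 h, and S100a10, F8, Vwf and Ggcx were added after their values were seen. A gene of these lists is not reported here and is left out of their counts. Positions are from GENCODE mouse release 21 (GRCm38). Shared transcript ends were searched with blastn 2.17.0 in the last 300 bases, with an identity minimum of 95% and a length minimum of 100 bases. Overlaps on the other strand, in F5, F13a1, Fgg, Plg, Serpinc1 and Serpind1, could not be separated. Alternatives were TMM, library totals, a floor of 10 reads, no minimum mean, the control pool of the other time, the sum of both control pools, thresholds of 1.5-fold and 5-fold, and a call that also needed an interval without 1.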

Additional observations from a re-analysis of the deposited data

Results flagged for a closer look

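Serpind1 and Serpina10 had counting intervals on opposite sides of 1 at 24 h and 48 h, with size factors. At 48 h both folds lay within the largest difference of the control pools (1.31-fold). The fold of Serpind1 was 0.685 at 24 h and 1.09 at 48 h. The fold of Serpina10 was 1.43 at 24 h and 0.864 at 48 h, where scaling by library totals gave 1.04. With 1 pool for each group the difference between the times was not tested.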

How the results depend on the processing

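No paired analysis was possible because each group is 1 library and no fold comes from a test. Depth limits F3, Plat, Plau and Procr, for which no difference was detectable, and leaves wide intervals for F13a1, Plaur, Thbd and Tfpi. Of the 24 h results, the 6 members higher became 1 at 5-fold, the 1 lower (F7) became 0 with library totals and at 5-fold, 2 (F7 and F13b) against the 48 h control pool or the sum of both control pools, and 6 at 1.5-fold, and the median log2 fold of −0.20 became −0.015 with library totals. Of the 48 h results, the 3 higher became 6 with no minimum mean and 1 at 5-fold, the 0 lower became 1 with no minimum mean and 4 at 1.5-fold, and the median of −0.17 became 0.10 with library totals and −0.069 with no minimum mean. Between the control pools, the 1 higher (F13a1) became 0 with a floor of 10 reads and 2 with no minimum mean. With the threshold of 1.5-fold and library totals together, added after the data were seen, 7 were higher and 4 lower at 24 h and 7 higher and 0 lower at 48 h. The construction of library totals, which raises all folds alike, the thresholds and the minimum explain their own changes, and the cause of those with the other control pool was not tested. The other 41 of 56 values of these counts and medians under changes of a single choice moved by 1.5-fold or less or stayed within the counting spread. Among them, with a floor of 10 reads the 6 higher at 24 h became 5 and the 3 higher at 48 h became 2. For single members, 41 of 62 folds moved past their counting interval with library totals, 24 of 61 with the control pool of the other time, 8 of 62 with the sum of both, 3 of 58 with the floor of 10 reads and 0 of 62 with TMM, and no member that had been past 2-fold changed direction under any of these 5 settings.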

Other observations

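The genes next to both clusters did not share their direction in full. Beside the fibrinogen genes, Plrg1, 5.7 kb away, had a fold of 1.14 at 24 h and 1.05 at 48 h on 62, 59, 94 and 71 reads, and Lrat, 103.8 kb away on the other side, had folds of 0.557 and 0.832 on 35, 41, 26 and 39 reads. Beside F7, F10 and Proz, Pcid2, 1.2 kb away, had folds of 0.724 and 0.583 on 30, 36, 29 and 24 reads, and Atp11a, 157.3 kb away, had folds of 2.85 and 1.24 on 10, 19, 38 and 27 reads. These are the nearest entries that reached the minimum mean.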
